A study of Mus musculus with 14 samples.

Results

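Genes of the Fc gamma receptors, of complement C1q and of the receptors for the complement fragments C3a and C5a were followed in mice with and without the lymphotoxin beta receptor. The 10 genes were chosen by name from the platform annotation (Fcgr1, Fcgr2b, Fcgr3, Fcgr4, Fcer1g, C1qa, C1qb, C1qc, C3ar1 and C5ar1), and all 10 of 10 were measured, each by 1 probe set, among 22180 genes in all. The study measured RNA of male mice on biotin-label arrays in 2 tissues. The controls were ApoE-deficient littermates, and the other mice lacked the lymphotoxin beta receptor as well (ApoE/LTbR-double deficient, here double-deficient), so every group lacked ApoE. All ate a Western type diet for 4 weeks from 8 weeks of age and were 12 weeks old at sampling. There were 4 double-deficient and 4 ApoE-deficient samples of aorta with its perivascular fat. Cells bearing CD115, which is the receptor of the monocyte growth factor CSF1, were taken from blood with magnetic beads after a density gradient, in 3 double-deficient and 3 ApoE-deficient preparations. Of the latter, replicates 3 and 4 were pools of 2 littermate samples each. The labels name neither the deleted alleles nor whether blood and aorta came from the same mice.

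Fc gamma receptors bind the constant part of immunoglobulin G and so tie antibody to phagocytes. Fcgr1, Fcgr3 and Fcgr4 encode activating receptors that signal through the shared gamma chain made from Fcer1g, and Fcgr2b encodes the inhibitory receptor that sets the threshold for the others. C1q, built from the products of C1qa, C1qb and C1qc, recognises antibody on a surface and starts the classical complement pathway; tissue macrophages are a main source of it. C3ar1 and C5ar1 encode the receptors through which myeloid cells sense the small fragments released when complement is activated. Fcgr1 is inducible by interferon, Fcgr4 is a marker of the patrolling Ly6C-low monocytes, and Fcgr2b is also made by B cells.

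All values are log2 signals from which the tissue's own median of that probe set had been taken away, so 0 is the middle of a tissue's arrays and no gene or tissue can be set against another by level. Differences are double-deficient minus ApoE-deficient, and a gene counts as called where the adjusted p of limma (Benjamini-Hochberg over the 22180 genes) was under 0.05. Ltbr, the deleted gene, was checked first. Its mean in aorta was -0.97 ± 0.34 (SD, n = 4) without the receptor gene and 0.68 ± 0.16 (SD, n = 4) with it. Its mean in CD115+ cells was -0.38 ± 0.28 (SD, n = 3) without and 0.34 ± 0.25 (SD, n = 3) with it, and the groups did not overlap in either tissue. Ltbr was not called in either tissue (adjusted p = 0.0679 and 0.976, limma). Where its probe set lies relative to the deleted part is not given. Of all genes 1 was called in aorta and 0 in CD115+ cells, while 1713 and 974 had an unadjusted p under 0.05. The labels call each preparation a single sample or a pool and do not number the animals, so p-values measure the spread between these samples, which may be technical. In bulk RNA, fewer cells of a type and less RNA per cell cannot be told apart.

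The centring removed levels, but the rounding of the stored values gave a coarse bound. If the values were log2 numbers held in single precision before centring, those from 8 upwards have a coarser step than those below, and differences between arrays keep it. The coarser step was found in 12.5% of all probe sets in aorta and 9.6% in CD115+ cells, and in 0.8% and 3.6% of the probe sets of olfactory receptors, genes of the nasal epithelium. It was found in 56.7% of the probe sets of ribosomal protein genes in both tissues. Fcer1g had it in both tissues. C1qa and C1qb had it in aorta and not in CD115+ cells. C1qc, the 4 Fcgr genes, C3ar1 and C5ar1 had the finer step in both, as a gene does with at least 1 array below that level. In CD115+ cells the coarser step was found for 7 of 11 Ly6C-low and 5 of 9 Ly6C-high monocyte markers, and for 0 of 11 B cell, 0 of 13 T cell and 0 of 11 natural killer markers. In aorta it was found for 8 of 17 macrophage markers.

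In the CD115+ cells the first question was whether loss of the receptor went with a change in the antibody receptors of blood monocytes. None of the 10 genes was called in these cells (0 of 10 against 0% of all genes), and 1 of 10 had an unadjusted p under 0.05, against 4.39% of all genes. That gene was Fcgr1, the high-affinity receptor for immunoglobulin G. Its values were -1.24, -1.05 and -0.05 in double-deficient replicates 1, 2 and 3. In ApoE-deficient replicates 1, 3 and 4 they were 0.39, 0.05 and 0.44. All double-deficient preparations lay below all ApoE-deficient ones, but replicate 3 of the former lay close to the pool that is replicate 3 of the latter. The mean difference was -1.07 (SE 0.32, 95% interval -1.87 to -0.28), a signal 2.11-fold lower. It missed the threshold over all genes (adjusted p = 0.976, limma, and 0.276 to 1 over the alternatives run), as did every gene in this comparison. The exact two-sided permutation test gave p = 0.1, the smallest that 3 against 3 preparations allow. Groups that did not overlap were found for 1 of 10 members and 9.16% of all genes (5.23% with the double-deficient side lower and 3.93% with it higher). An unadjusted p under 0.05 with a lower value was found for 2.33% of all genes and with a higher value for 2.06%. By sign alone 8 of 10 members were lower, against 55.3% of all genes, and 2 were higher, against 44.7%. Only 0.18% of all genes had a larger absolute difference in these cells, and Fcgr1 ranked 287 of 22180 by p.

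**Figure D1:**
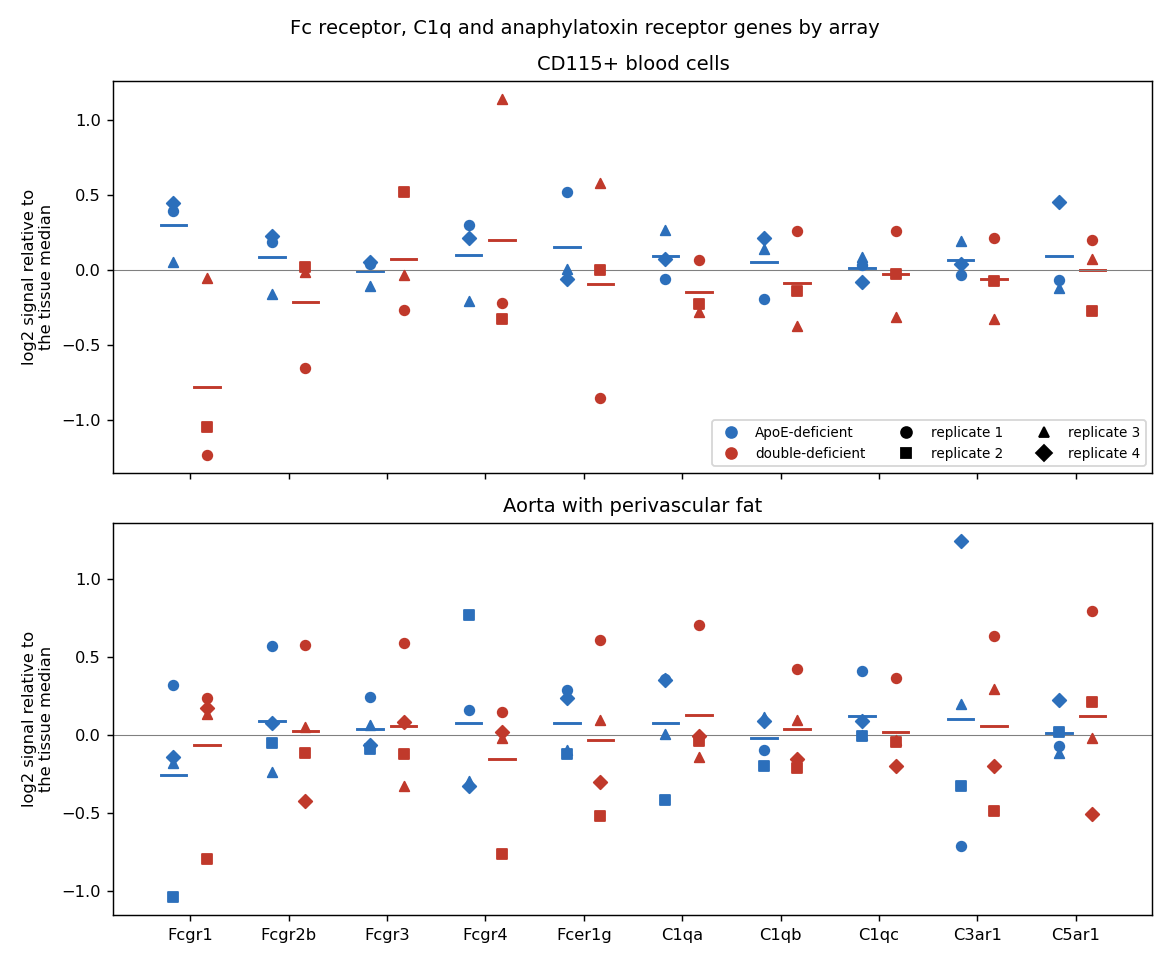
Log2 signal relative to the tissue median (vertical axis) of the 10 genes in CD115+ blood cells (top) and aorta (bottom); each point is 1 array, shape gives the replicate number, colour the genotype and short lines the group means. Fcgr1 is the 1 gene whose groups do not overlap in CD115+ cells, and the groups of every gene overlap in aorta.

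The sequence before the start of Fcgr1 is shown because this is the member with the largest difference. RefSeq promoter entries were found for 9 of the 10 genes (build GRCm38.p6, the 250 bases before the start; C1qa was not among them). Each was searched on both strands for TTCNNNGAA, the core of the interferon-gamma-activated site, for the core of the interferon-stimulated element (GAAA, any 2 bases, GAAA) and for GAGGAA, the core bound by the myeloid factor PU.1 and other ETS proteins. These motifs can overlap one another. The entries of Fcgr1 and of Fcgr4 follow 5′ to 3′ with every match in capitals, that of Fcgr4 because its array pattern in the same cells was unlike that of Fcgr1.
Fcgr1, chr3:96293970-96294219, minus strand: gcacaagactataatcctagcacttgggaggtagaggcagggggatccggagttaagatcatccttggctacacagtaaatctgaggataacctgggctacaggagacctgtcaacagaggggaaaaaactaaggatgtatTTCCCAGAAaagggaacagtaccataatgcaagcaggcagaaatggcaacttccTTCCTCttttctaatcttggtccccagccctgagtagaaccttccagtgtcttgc
Fcgr4, chr1:171018676-171018925, plus strand: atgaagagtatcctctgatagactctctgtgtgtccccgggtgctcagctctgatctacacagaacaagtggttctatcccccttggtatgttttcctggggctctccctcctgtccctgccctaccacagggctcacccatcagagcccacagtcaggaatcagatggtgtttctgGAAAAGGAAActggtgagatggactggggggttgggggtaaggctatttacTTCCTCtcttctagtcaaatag

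The Fcgr1 entry held TTCCCAGAA, a match to TTCNNNGAA that begins 109 bases before the start, and a GAGGAA match on the opposite strand that begins 55 bases before it. Among all 32817 promoter entries searched, 7.0% held TTCNNNGAA, and of the 9 member genes with an entry Fcgr1 alone held it. The Fcgr4 entry held GAAAAGGAAA, a match to the core of the interferon-stimulated element that begins 73 bases before the start, which 3.0% of all entries held, and a GAGGAA match at 22 bases. GAGGAA was found in 23.3% of all entries and also before Fcgr3, C1qb and C1qc. A match describes letters in this window and not a bound factor.

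The genes whose values lay closest to those of Fcgr1 over the 6 CD115+ arrays, by root mean square difference among 311 genes with at least 0.75 of its SD, were Oas2 (0.16), Ms4a4a (0.25), Ifi204 (0.30), Ly6a2 (0.30) and Ms4a6c (0.30). Oas2, an interferon-induced antiviral enzyme, was at -1.33, -0.81 and -0.24 in double-deficient replicates 1, 2 and 3. It was at 0.26, 0.24 and 0.39 in ApoE-deficient replicates 1, 3 and 4. These genes were picked for their closeness on the same arrays, so their likeness is a description. Ifi204, of the interferon-inducible p200 family, was at -1.39, -0.51 and 0.17 in the double-deficient preparations, so that replicate 3 lay within the ApoE-deficient range. The differences were -1.09 (SE 0.27) for Oas2 and -0.64 (SE 0.38) for Ifi204, and neither was called. In double-deficient replicates 1, 2 and 3 Ms4a4a, closer to Fcgr1 than Ifi204, was at -1.55, -0.85 and 0.11. Ly6a2 was at -1.63, -0.74 and -0.04 in these, and Ms4a6c at -1.21, -0.47 and 0.08.

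Marker lists were read beside Fcgr1 in these preparations, with 0 genes called in each. The mean of the interferon response list was -0.32, -0.14 and -0.24 in double-deficient replicates 1, 2 and 3. It was thus still low in replicate 3, where Fcgr1 was at -0.05. In ApoE-deficient preparations it ran from 0.12 to 0.15. Of its 17 measured genes 15 were negative (median -0.34), against 55.3% of all genes. Oas2, picked above for its closeness to Fcgr1, is on this list. In that list 0 of 17 genes were called in CD115+ cells by limma. An unadjusted p under 0.05 with a lower value was found for 8, against 2.33% of all genes. Among them were Usp18 at -0.56 (SE 0.07) and Rtp4 at -0.95 (SE 0.22). The mean of the list of Ly6C-high monocytes, the classical blood monocytes, was -0.77, -0.19 and -0.07 in double-deficient replicates 1, 2 and 3. It was 0.37, -0.01 and 0.47 in ApoE-deficient replicates 1, 3 and 4. All 9 of its 9 measured genes were negative (median -0.50), 4 of 9 had groups that did not overlap and were lower (5.23% of all genes), and Chil3 stood at -1.27 (SE 0.44). The macrophage list mean was -0.01, -0.19 and -0.08 in double-deficient replicates 1, 2 and 3. Among these it was highest in replicate 1, where Fcgr1 was lowest. In ApoE-deficient preparations it ran from 0.08 to 0.12. Of its 17 genes 13 were negative, and Msr1, a scavenger receptor, was at -0.45 (SE 0.13). The part of these shifts in the Fcgr1 difference was not tested. Over all genes the median difference was -0.01.

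**Figure D2:**
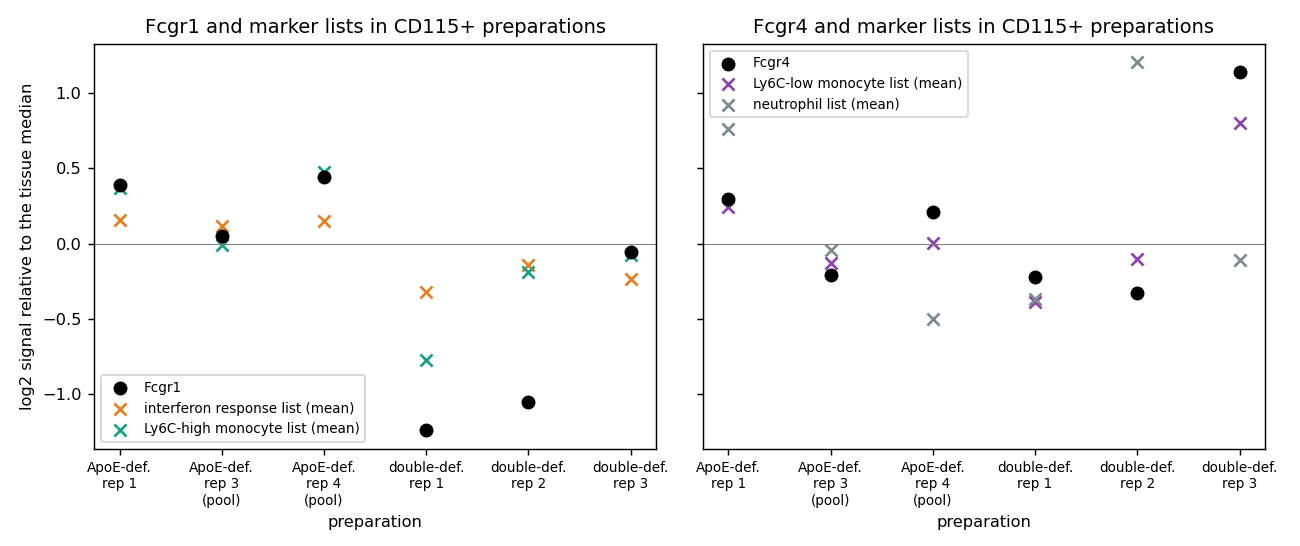
Log2 signal relative to the tissue median (vertical axis) in each of the 6 CD115+ preparations (horizontal axis); black points are Fcgr1 (left) or Fcgr4 (right), crosses are the means of the marker lists named in the legends. Fcgr1 is lowest in double-deficient replicates 1 and 2, and Fcgr4 and the Ly6C-low list are both highest in double-deficient replicate 3.

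Fcgr4, the receptor most typical of Ly6C-low monocytes, followed another pattern. It was at -0.22, -0.33 and 1.14 in double-deficient replicates 1, 2 and 3 and at 0.30, -0.21 and 0.21 in ApoE-deficient replicates 1, 3 and 4. One double-deficient preparation stood far above the others while the remaining values overlapped. The difference was 0.10 (SE 0.41, 95% interval -0.92 to 1.12), and -0.37 without double-deficient replicate 3. The list of Ly6C-low monocyte markers had means of -0.39, -0.10 and 0.80 in the double-deficient and 0.24, -0.13 and 0.00 in the ApoE-deficient preparations, and was likewise highest in double-deficient replicate 3. The 5 genes closest to Fcgr4, among 685 compared, were Lair1 (root mean square difference 0.10), Spn (0.11), Dusp16 (0.11), Adcy7 (0.12) and Krt80 (0.13). Spn, the sialophorin CD43 and itself a gene of the Ly6C-low list, was at 1.01 in double-deficient replicate 3 and between -0.39 and 0.37 elsewhere. These 5 genes were picked on the same arrays, so their likeness is a description. Lair1, an inhibitory collagen receptor, was at 1.25 there and between -0.41 and 0.26 elsewhere.

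Fcer1g, the signalling chain shared by the activating receptors, was at -0.86, -0.00 and 0.57 in double-deficient replicates 1, 2 and 3. In ApoE-deficient replicates 1, 3 and 4 it was at 0.52, 0.00 and -0.07. The double-deficient preparations thus held both the lowest and the highest value. Its difference was -0.25 (SE 0.38, 95% interval -1.18 to 0.69), and 0.13 without double-deficient replicate 1. Fcgr2b, the inhibitory receptor, was at -0.65, 0.01 and -0.01 in the double-deficient and 0.19, -0.16 and 0.23 in the ApoE-deficient preparations. Double-deficient replicate 1 alone lay clearly below the rest, and the difference was -0.30 (SE 0.21, 95% interval -0.82 to 0.22). B cell markers were 11 of 11 positive in these cells, against 44.7% of all genes, with a median difference of 1.44. Their list mean was -0.25 to 1.79 in double-deficient against -0.83 to 0.22 in ApoE-deficient preparations. Their part in the Fcgr2b value was not tested. Fcgr3, a low-affinity activating receptor found on monocytes, neutrophils and natural killer cells, ran from -0.27 to 0.52 in double-deficient and from -0.11 to 0.05 in ApoE-deficient preparations. Its difference was 0.08 (SE 0.20, 95% interval -0.42 to 0.58), and its highest value was in double-deficient replicate 2. The neutrophil and platelet lists were highest in the same preparation, at 1.20 and 1.86. So were the lists of B cells (1.79), T cells (0.54) and natural killer cells (0.30). The lists of mast cells and basophils (0.27) and of dendritic cells (0.21) were also highest there. Their part in the Fcgr3 value was not tested. The proteins of Fcgr2b and Fcgr3 are closely similar outside the cell, and how far a probe of one gene reads the other is not known from these values.

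The 3 C1q genes had partly like values in the CD115+ cells. C1qa was at 0.06, -0.23 and -0.28 in double-deficient replicates 1, 2 and 3 and at -0.06, 0.27 and 0.07 in ApoE-deficient replicates 1, 3 and 4. Among double-deficient preparations all 3 chains were highest in replicate 1 and lowest in replicate 3, the reverse of Fcer1g. In ApoE-deficient replicate 4 the chains diverged, with C1qb at 0.21 and C1qc at -0.08. The chains differed from each other by a root mean square of 0.13 to 0.16 over the 6 arrays. They differed from Fcer1g, which had a larger SD of 0.515, by 0.585 to 0.678. Their own SDs over these arrays were 0.21 (C1qa), 0.26 (C1qb) and 0.19 (C1qc), and 13.5% to 25.1% of all genes had larger ones. C3ar1 lay closer to each chain than the chains did to each other. Its root mean square difference was 0.098 from C1qa, 0.106 from C1qb and 0.074 from C1qc. The differences were -0.24 (SE 0.13, 95% interval -0.55 to 0.07) for C1qa, -0.14 (SE 0.19) for C1qb and -0.04 (SE 0.15) for C1qc. All 3 were negative and the groups overlapped for each. C1qb and C1qc became 0.01 and 0.10 without double-deficient replicate 3. The 3 genes lie next to each other on chromosome 4, with 0 genes between C1qb and C1qc and 0 between C1qc and C1qa. On chromosome 1 Fcgr2b, Fcgr4 and Fcgr3 follow each other with 0 protein-coding genes between neighbours, and 7 lie between Fcgr3 and Fcer1g. Fcgr1 lies apart from them on chromosome 3.

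For the receptors of C3a and C5a the CD115+ groups overlapped. C3ar1 ran from -0.33 to 0.21 in double-deficient and from -0.04 to 0.19 in ApoE-deficient preparations, with a difference of -0.13 (SE 0.15, 95% interval -0.49 to 0.23). C5ar1 ran from -0.27 to 0.20 and from -0.12 to 0.45, with a difference of -0.09 (SE 0.20, 95% interval -0.57 to 0.39). Over the 6 arrays 23.3% of all genes had a larger SD than C3ar1 and 13.1% a larger one than C5ar1. Without double-deficient replicate 3 C3ar1 was at 0.01, and without ApoE-deficient replicate 4 C5ar1 was at 0.09. The median difference was -0.25 over the 5 Fc receptor genes, -0.14 over the 3 C1q genes and -0.11 over both complement receptors. Without double-deficient replicate 1 the Fc receptor median was 0.13.

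**Figure D3:**
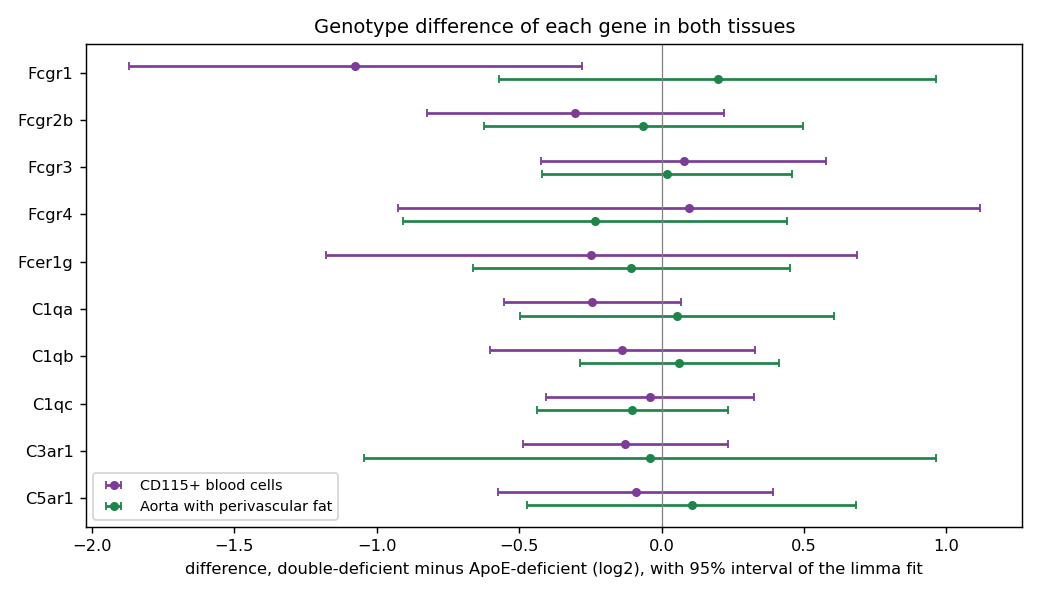
Difference between genotypes in log2 signal, double-deficient minus ApoE-deficient (horizontal axis), for each gene in CD115+ cells and in aorta; points are differences of group means and bars 95% intervals of the limma fit, not adjusted for the number of genes. The interval of Fcgr1 in CD115+ cells runs from -1.87 to -0.28, and every other interval includes 0.

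In the aorta, where these genes mark macrophages and other leukocytes of the wall and fat, none of the 10 was called (0 of 10 against 0.00451% of all genes). At an unadjusted p under 0.05 limma found 0 of 10, against 7.72% of all genes (3.91% higher and 3.81% lower). The groups overlapped for every member, while they did not for 4.3% of all genes (2.19% higher and 2.11% lower). By sign 5 of 10 members were higher, against 52.8% of all genes, and 5 were lower, against 47.2%. The differences ran from -0.23 (Fcgr4, SE 0.29) to 0.20 (Fcgr1, SE 0.33). At least 22.27% of all genes had a larger absolute difference than any member.

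C1q, the product chiefly of tissue macrophages, did not differ between genotypes beyond its spread. C1qa was at 0.71, -0.04, -0.14 and -0.01 in double-deficient replicates 1 to 4 and at 0.36, -0.41, 0.01 and 0.35 in ApoE-deficient replicates 1 to 4. Double-deficient replicate 1 was highest, and the other double-deficient aortas lay inside the ApoE-deficient range. The differences were 0.05 (SE 0.24, 95% interval -0.50 to 0.61) for C1qa, 0.06 (SE 0.15, 95% interval -0.29 to 0.41) for C1qb and -0.10 (SE 0.14, 95% interval -0.44 to 0.23) for C1qc. Without double-deficient replicate 1, C1qa and C1qb were at -0.14 and -0.07. Those intervals exclude a 2-fold change in either direction for each chain, before any adjustment for the number of genes. The genes closest to the C1q mean over the 8 aortas, among 10889 compared, were Mospd2 (root mean square difference 0.08), Apoh (0.10), Tnxb (0.10), Dact3 (0.11) and the complement inhibitor gene Cfi (0.11). The target itself varied with an SD of only 0.23, so many genes could lie near it.

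Fcgr1 in aorta was at 0.24, -0.79, 0.14 and 0.18 in double-deficient replicates 1 to 4 and at 0.32, -1.04, -0.18 and -0.14 in ApoE-deficient replicates 1 to 4. Replicate 2 was low in both genotypes and the remaining values overlapped. Its difference was 0.20 (SE 0.33, 95% interval -0.57 to 0.97), and -0.06 without ApoE-deficient replicate 2. Fcgr4 ran from -0.76 to 0.15 in double-deficient and from -0.32 to 0.77 in ApoE-deficient aortas. Fcgr2b differed by -0.07 (SE 0.24, 95% interval -0.62 to 0.49), Fcgr3 by 0.02 (SE 0.19, 95% interval -0.42 to 0.46) and Fcer1g by -0.11 (SE 0.24, 95% interval -0.66 to 0.45). The B cell list had 10 of 11 genes negative in aorta, against 47.2% of all genes (median -1.70). Its means ran from -0.37 to -0.14 in double-deficient and from -0.21 to 2.13 in ApoE-deficient aortas. The part of the B cell list in the Fcgr2b value was not tested.

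C3ar1 had the largest SD of the members among ApoE-deficient aortas (0.85), and C5ar1 among double-deficient ones (0.54). C3ar1 was at 0.64, -0.49, 0.30 and -0.20 in double-deficient replicates 1 to 4. In ApoE-deficient replicates 1 to 4 it was at -0.71, -0.32, 0.20 and 1.25. The ApoE-deficient aortas held both extremes. The C3ar1 difference was -0.04 (SE 0.43, 95% interval -1.04 to 0.96), so the interval reaches a 2-fold lower signal. Without ApoE-deficient replicate 4 it was 0.34. C3ar1 lies on chromosome 6, as Ltbr does, with 115 annotated genes between them (62 coding for protein). C5ar1 ran from -0.50 to 0.79 in double-deficient and from -0.11 to 0.23 in ApoE-deficient aortas, with a difference of 0.11 (SE 0.25, 95% interval -0.47 to 0.68). Without double-deficient replicate 1 it was at -0.12.

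Aortas of one genotype differed among themselves for these genes. Double-deficient replicate 1 had all 10 members above 0 and was the highest array for 6 of them, with a median over the members of 0.59. ApoE-deficient replicate 1 came next at 0.27, with 7 members above 0. Double-deficient replicates 2 and 4 were each the lowest array for 3 members, with medians of -0.16 and -0.18. The macrophage list mean was 0.38, -0.32, 0.13 and -0.10 in double-deficient replicates 1 to 4 and 0.50, 0.32, -0.19 and 0.27 in ApoE-deficient replicates 1 to 4. Both aortas labelled replicate 1 were thus high in macrophage markers as well. ApoE-deficient replicate 2 was high by this mean but had only 2 members above 0. Its list median was 0.09, against 0.31 in double-deficient replicate 1. Over the list the median difference was -0.07, with 7 of 17 genes positive, against 52.8% of all genes. The part of the macrophage list in the members' values was not tested.

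**Figure D4:**
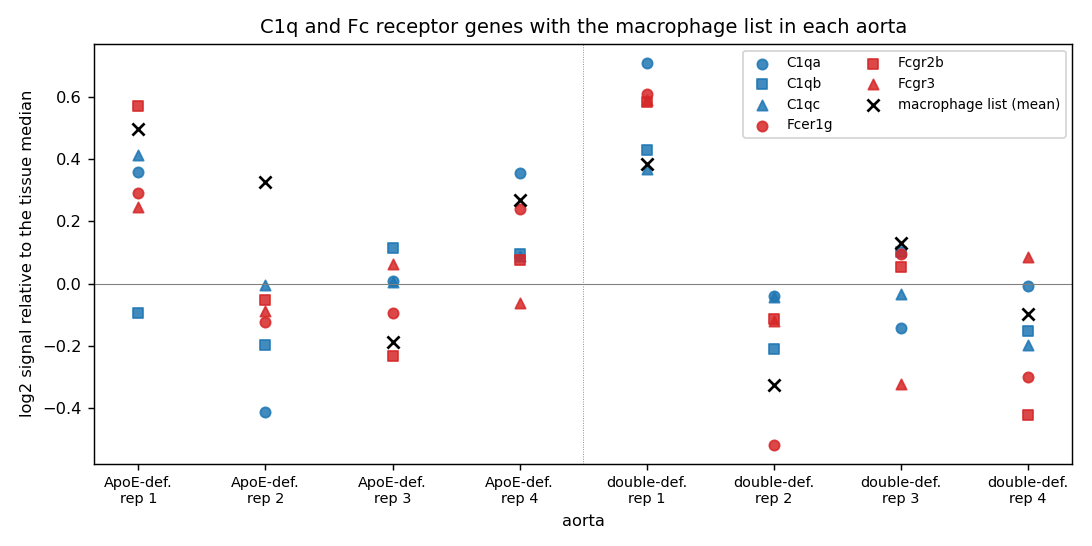
Log2 signal relative to the tissue median (vertical axis) of 3 C1q genes (blue), 3 Fc receptor genes (red) and the mean of the macrophage list (crosses) in each of the 8 aortas (horizontal axis). Double-deficient replicate 1 has all 6 genes above 0.3, and no genotype stands apart.

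The tests of the difference between tissues gave 0 called genes among the members and 0 among all genes (limma), with 1530 of 22180 at an unadjusted p under 0.05 (6.9%). For Fcgr1 the difference in CD115+ cells minus that in aorta was -1.27 (SE 0.51, 95% interval -2.38 to -0.17, adjusted p = 0.674). The other 9 members ranged from -0.30 (C1qa) to 0.33 (Fcgr4) and their intervals included 0.

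Genes that work with these receptors were read from lists chosen by function. Of 24 measured genes of Fc receptor signalling and related adaptors, 0 were called in aorta by limma. At an unadjusted p under 0.05 limma gave 10 lower and 2 higher, against 3.81% and 3.91% of all genes. Of the 24, 19 were negative, against 47.2% of all genes (median -0.26, against 0.01 over all genes). The list means overlapped, from -0.29 to 0.03 in double-deficient and from -0.09 to 0.53 in ApoE-deficient aortas. Ptpn6, the phosphatase SHP-1 that opposes activating receptors, differed by -1.10 (SE 0.30), and Hcst, listed as a related adaptor (DAP10), by -1.76 (SE 0.50). Lymphocyte markers were on average lower in double-deficient aortas, with 13 of 13 T cell genes negative (median -1.25). T cell list means were -0.91 to -0.15 in double-deficient against 0.00 to 1.10 in ApoE-deficient samples. Natural killer genes had 11 of 11 negative (median -0.32). ApoE-deficient replicate 3 was the lowest of its genotype in the T cell, B cell and natural killer lists, at 0.00, -0.21 and -0.11. Its B cell and natural killer means lay inside the double-deficient ranges. Many genes of Fc receptor signalling are also used by lymphocyte receptors, and the part of lymphocyte RNA in these differences was not tested. In CD115+ cells 16 of the 24 were positive (median 0.10), against 44.7% of all genes. The list mean was -0.45, 0.22 and 0.47 in double-deficient replicates 1, 2 and 3. It was 0.15, -0.17 and -0.07 in ApoE-deficient replicates 1, 3 and 4, so the double-deficient preparations held both extremes. Of these genes 0 were called and 1 had an unadjusted p under 0.05 in limma, against 4.39% of all genes. This was Lat, an adaptor of T cells and platelets, at 0.65 (SE 0.22). T cell genes were positive there in 13 of 13 (median 0.36).

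Phagocytosis genes had 14 of 20 negative in aorta, against 47.2% of all genes (median -0.14, 0 called). At an unadjusted p under 0.05 in limma 4 were lower, against 3.81% of all genes. The leukocyte GTPase gene Rac2 was at -1.42 (SE 0.35) and the oxidase subunit gene Ncf1 at -0.67 (SE 0.24). The list means overlapped, from -0.18 to 0.04 in double-deficient and from -0.25 to 0.44 in ApoE-deficient aortas. The lowest was in ApoE-deficient replicate 3. In CD115+ cells 17 of 20 were positive, against 44.7% of all genes (median 0.10, 0 called, 0 at an unadjusted p under 0.05 in limma). Wasf2 was at 0.29 (SE 0.14) and Rac1 at 0.16 (SE 0.12). The list mean was -0.50, 0.25 and 0.47 in double-deficient replicates 1, 2 and 3. It was 0.13, -0.19 and -0.12 in ApoE-deficient replicates 1, 3 and 4, so the double-deficient preparations held both extremes. Receptors that share the Fcer1g or a related adaptor gave 0 called of 13 in either tissue. Pilrb1 was at 0.99 (SE 0.31) and the fungal lectin receptor gene Clec4n at -1.43 (SE 0.62) in aorta. Trem1, an amplifier of inflammation, was at 0.87 (SE 0.35) and Clec5a at -0.21 (SE 0.11) in CD115+ cells. All but Clec5a had an unadjusted p under 0.05, as did 7.72% of all genes in aorta and 4.39% in CD115+ cells. Among the other Fc receptors 0 of 13 were called in either tissue. In aorta 4 had an unadjusted p under 0.05 and were lower, against 3.81% of all genes. Among them were the B cell genes Fcrla at -1.57 (SE 0.46) and Fcrl1 at -1.79 (SE 0.55). In CD115+ cells 0 did, with Fcer2a, the low-affinity immunoglobulin E receptor of B cells, at 1.67 (SE 0.73) and Fcrl5 at -0.25 (SE 0.11).

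Of the complement components outside C1q none was called in either tissue. Of 12 genes of the classical and lectin pathways 0 were called. In aorta 0 had an unadjusted p under 0.05 in limma (median 0.02), with the ficolin gene Fcna at 0.37 (SE 0.27) and Mbl1 at -0.10 (SE 0.07). In CD115+ cells 10 of 12 were negative, against 55.3% of all genes (median -0.11). Of them 1 had an unadjusted p under 0.05, against 2.33% of all genes with a lower value. This was C1rl, a relative of the C1r protease that partners C1q, at -0.36 (SE 0.08) with groups that did not overlap, beside Fcnb at -0.12 (SE 0.07). Of 10 genes of the central, alternative and terminal pathways 0 were called in either tissue, and 0 had an unadjusted p under 0.05 in limma. C5ar2, another receptor for C5a, was at -0.15 (SE 0.07) with groups that did not overlap and properdin (Cfp) at -0.23 (SE 0.15) in CD115+ cells, and Hc, the gene of C5, was at -0.16 (SE 0.09) and C8g at -0.25 (SE 0.15) in aorta. Of 18 complement regulators and receptors 0 were called in either tissue. The largest in aorta by p were the B cell receptor gene Cr2 at -2.41 (SE 0.64) and Cd55, which dissolves the enzymes that cut C3, at -1.07 (SE 0.35). In CD115+ cells the same genes were at 0.96 (SE 0.48) and 0.93 (SE 0.43). The B cell markers, of which Cr2 is itself 1, were 11 of 11 positive there and 10 of 11 negative in aorta.

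Markers of other cells that bear Fc receptors or C5ar1 were read in the same way, with 0 called in every list. Over all genes 47.2% were negative and 52.8% positive in aorta, and 55.3% negative and 44.7% positive in CD115+ cells. At an unadjusted p under 0.05 limma gave 3.81% lower and 3.91% higher in aorta. In CD115+ cells it gave 2.33% lower and 2.06% higher. Neutrophil genes had 11 of 13 negative in aorta (median -0.23, Mmp8 -0.32) and 8 of 13 positive in CD115+ cells (median 0.06, Retnlg 1.09). Mast cell and basophil genes, which use Fcer1g in the receptor for immunoglobulin E, had medians of 0.05 in aorta (Hdc 0.22) and 0.02 in CD115+ cells (Tpsb2 0.13). Platelet genes had medians of -0.22 (Gp5 -0.28) and 0.19 (Itga2b 0.30), with a list mean of 1.86 in double-deficient CD115+ replicate 2 against -0.77 and -0.39 in the others of that genotype. Dendritic cell genes had medians of -0.22 (Siglech -1.19) and -0.01 (Bst2 -0.49, a gene also on the interferon response list). In aorta 8 of 11 were negative, and limma gave 2 lower and 1 higher at an unadjusted p under 0.05. In CD115+ cells 6 of 11 were negative, with 1 lower and 1 higher. In aorta Ly6C-high markers had 8 of 9 positive (median 0.23, Ly6c2 -1.07), Ly6C-low markers 9 of 11 negative (median -0.29, Treml4 -0.65) and interferon response genes 13 of 17 negative (median -0.29, Socs1 -0.58, Irf7 -0.65). The gene of smallest p was Cd22 at -1.70 in the aorta B cell list and Blk at 1.44 in that of CD115+ cells. For T cells it was Cd4 at -1.24 and Cd3g at 0.82. Natural killer markers gave Klrd1 at -1.89 in aorta and Klrk1 at -0.11 in CD115+ cells, where the list median was 0.04. Macrophage markers gave Marco at -1.99 in aorta, and Ly6C-low markers Nr4a1 at 0.47 in CD115+ cells, where 6 of 11 were positive (median 0.02). Defining markers at a true 0 cannot be named, since the centred values hold no zero level.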

How the data were processed

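Per the labels' protocols, 1 ng of RNA from each of 8 aortas and 6 CD115+ preparations was amplified and biotin-labelled. The authors deposited a single value table (33793 probe sets, 14 arrays), taken here to be on the log2 scale. How arrays were normalized and probes summarised, and the base of the logarithm, was not given in the sources used here. In every probe set the medians over the aorta arrays and over the CD115+ arrays were 0 within 1e-06, so values had been centred per tissue; array medians lay within 0.01 of 0. Of the probe sets 23521 had 1 gene symbol, 1814 several and 8458 none listed; the first were averaged per gene, and no filter on level was possible. Titles gave groups and replicates. Genotypes were compared within each tissue, and the difference between tissues in 1 fit of 4 groups, with limma 3.58.1 in R 4.3.3 (lmFit, eBayes, Benjamini-Hochberg), tested on simulated data. Exact permutation used scipy 1.17.1. The replicate numbers were not used as pairs in the main fits, since same-numbered arrays showed no clear shared deviation. With so few arrays a pairing could not be told, and a fit with the replicate block is given below. Members and lists were chosen with earlier results of these data known. Some genes stand on more than 1 list, among them Cr2 and Fcer2a, which are also B cell markers, so such lists are not independent of each other. Named list genes were those of smallest p per list, 2 for pathway and interferon lists and 1 for cell types; closeness compared genes other than members, without unnamed gene models, small RNA genes, pseudogenes and odorant, vomeronasal or taste receptors.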

Additional observations from a re-analysis of the deposited data

Results flagged for a closer look

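Among 20 aorta groups of 4 arrays tested for a value far from its neighbours, 2 were found, where chance gives about 1 in 20. Fcgr1 in double-deficient aorta replicate 2 was at -0.79, far below the other double-deficient aortas, and its gap to the nearest was 0.90 of the range. C1qa in double-deficient aorta replicate 1 was at 0.71, far above the others, with a gap of 0.84 of the range. Groups of 3 CD115+ preparations are too small for this test.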

How the results depend on the processing

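No member was called in any of the alternatives run, which were robust eBayes, array weights, the probe set of largest SD, array medians at 0, quantile normalization, 1 fit of 4 groups, the replicate block, leaving out each array and leaving out the pooled preparations. Fcgr1 in CD115+ cells kept a negative difference in all of these, from -1.44 (without double-deficient replicate 3) to -0.85 (without double-deficient replicate 1), and -1.17 without the pools, where 1 ApoE-deficient preparation is assumed to vary like the others. With the replicate block it was -0.87. Same-numbered arrays had correlations of deviations from -0.15 to 0.17 in aorta and of -0.47 and -0.29 in CD115+ cells. The deviations were taken from the means of small groups, so these few correlations cannot tell whether same-numbered arrays were paired. The block left the number of called genes at 1 in aorta, 0 in CD115+ cells and 0 between tissues.

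The genes called in aorta numbered 0 with robust eBayes, 0 with array weights and 0 with the probe set of largest SD, 19 with 1 fit of 4 groups, and 0 to 74 without 1 array (74 without ApoE-deficient replicate 3, 3 without double-deficient replicate 4, 0 without each of the others). Between tissues they ranged from 0 to 58 without 1 array (58 without double-deficient CD115+ replicate 1, 30 without ApoE-deficient aorta replicate 3, 1 without double-deficient aorta replicate 2). The median of the Fc receptor genes in CD115+ cells ranged from -0.40 to 0.13 without 1 array.

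Signs of small differences changed. In CD115+ cells the block gave Fcgr3 -0.12 and C5ar1 0.23, quantile normalization gave Fcgr4 -0.0071, and leaving out the pools gave Fcgr4 -0.10, C1qb 0.11 and C5ar1 0.069. Between tissues the block gave Fcgr3 -0.14 and C5ar1 0.12, array weights gave Fcer1g 0.11, quantile normalization gave C3ar1 0.021, and leaving out the pools gave C1qb 0.047 and C3ar1 0.0115. Without 1 array the ranges in CD115+ cells were -0.15 to 0.25 (Fcgr3), -0.37 to 0.36 (Fcgr4), -0.58 to 0.13 (Fcer1g), -0.31 to 0.0052 (C1qb), -0.18 to 0.10 (C1qc), -0.26 to 0.0053 (C3ar1) and -0.19 to 0.093 (C5ar1). In aorta they were -0.062 to 0.44 (Fcgr1), -0.25 to 0.10 (Fcgr2b), -0.16 to 0.15 (Fcgr3), -0.32 to 0.056 (Fcer1g), -0.14 to 0.15 (C1qa), -0.066 to 0.15 (C1qb), -0.31 to 0.34 (C3ar1) and -0.12 to 0.31 (C5ar1). Between tissues they were -0.17 to 0.24 (Fcgr3), -0.14 to 0.59 (Fcgr4), -0.47 to 0.24 (Fcer1g), -0.081 to 0.20 (C1qc), -0.47 to 0.18 (C3ar1) and -0.40 to 0.029 (C5ar1). The cause was not tested. The number of arrays limits the precision, and signal over background is not known from centred values.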
